A study of Mus musculus with 11 samples.

Results

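Zmat3 and 6 genes that encode related zinc-finger proteins were followed through all 11 thymocyte libraries, to give the residual Zmat3 transcript level in mice that lack the gene and to see whether any relative rose in its place. The 7 genes, Zmat3, Zmat1, Zmat2, Zmat5, Zfr, Zfp346 and Zfp385a, were picked by symbol and family, and were found by Ensembl identifier among 54418 genes. All 7 passed the filter on low counts in each comparison. Thymocytes were isolated from wild-type (wt), Zmat3-/- and Puma-/-p21-/-Zmat3-/- triple knockout (TKO) mice, with 4, 4 and 3 animals. The mice were 8 to 12 weeks old, all on the C57BL/6-WEHI background, and no treatment is named for them. Zmat3 is homozygously deleted in both mutant genotypes, with no Cre or restriction to a tissue named, and the TKO label adds deletions of Puma (gene symbol Bbc3) and p21 (gene symbol Cdkn1a). Both genes were still counted in TKO mice, Bbc3 at 11.9 to 15.8 CPM against 17.0 to 19.8 CPM in wt mice and Cdkn1a at 2.26 to 3.55 CPM against 3.58 to 10.2 CPM (counts scaled to library size). Counts summed over a gene do not show which exons were left.

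ZMAT3, also called WIG1, is an RNA-binding protein whose gene is switched on directly by the transcription factor TRP53, the mouse p53. Its zinc fingers are of the matrin type, which bind double-stranded RNA, and the protein is known for regulating alternative splicing and the stability of its target transcripts. The relatives share this kind of zinc finger and cover several branches of RNA biology. ZMAT2 belongs to the spliceosome at its precatalytic stage, ZMAT5 is a protein of the minor spliceosome, ZFR is an RNA-binding splicing regulator, and ZFP346 (also called JAZ) binds double-stranded RNA. ZFP385A (also called HZF) is itself a TRP53 target that takes part in the TRP53 response, and ZMAT1 is little described.

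The study's genotyping primers show where its Zmat3 test reads the locus, and they bear on what a gene-level count can detect. Zmat3 (ENSMUSG00000027663.12) lies on the minus strand of GRCm38 at chr3:32334792-32366014, and its main transcript has 6 exons with the start codon in exon 2, at chr3:32361157-32361159. The wt primer pair is 416 bases apart from end to end, and both primers match intron 1 (chr3:32361217-32365503), where among the 4 annotated transcripts only the retained-intron form Zmat3-204 holds their sequence. The forward primer for the deleted allele also lies in intron 1, 81 bases inside the stretch that the wt pair spans. The reverse primer for the deleted allele matched no annotated transcript, so the extent of the deletion was not read from it. The 4 primers are written 5′ to 3′ in lower case, at chr3:32362928-32362948 and chr3:32362533-32362552 for the wt pair and at chr3:32362848-32362867 for the forward primer of the deleted allele.
wt forward: tggtccattacttggttggac
wt reverse: agtggttctggaaggcagag
deleted allele forward: tgattttgcaagggctgtag
deleted allele reverse: ccacactgaacatggtgtgac
The deposited counts are sums over each gene. They do not say which exons the reads came from, so a Zmat3 read in a mutant library is not evidence of an intact transcript.

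The libraries held 17669715 to 80207003 counts, and at 3 counts the least deep could show 0.174 CPM and the deepest 0.0367 CPM. Levels are CPM scaled with TMM factors, and a difference is a log2 fold change (log2FC) from edgeR's quasi-likelihood test. A gene is said to pass the test at an adjusted p below 0.05, with Benjamini-Hochberg adjustment over all genes tested. The 11 thymocyte markers, among them Thy1, Cd4, Cd8a, Rag1 and Lck, summed to 12135 to 16411 CPM across the mice. The 8 thymic stroma markers summed to 28.9 to 122 CPM, the 7 myeloid markers to 144 to 387 CPM, the 5 erythroid markers to 859 to 8596 CPM, the 4 B cell markers to 39.6 to 98.9 CPM, the 3 endothelial markers to 102 to 135 CPM and the 3 megakaryocyte markers to 3.24 to 5.64 CPM. These ranges overlapped between the genotypes, no defining marker was at 0 in every mouse, and their part in the results was not tested. The mitochondrial chromosome gave 4.25% to 6.31% of the counts of wt mice, against 6.54% to 14.6% for the Zmat3-/- mice and 3.86% to 9.29% for the TKO mice. It was thus higher in every Zmat3-/- than in every wt mouse, and its part was not tested either. In bulk samples, fewer cells of a type and less RNA per cell cannot be told apart. Each library is labelled as a separate mouse.

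wt mice 1 and 2 stood apart from the other 9 libraries. Protein-coding genes were divided by exon length into 5 groups of equal size. In the group of shortest genes the median log2 ratio to the mean of the 4 Zmat3-/- libraries was 0.67 and 0.46 in wt mice 1 and 2, and −0.21 and −0.24 in wt mice 3 and 4. In the group of longest genes these ratios were −0.61 and −0.48, against 0.11 and 0.089. The 7 mutant libraries, of which 4 make up that mean, stayed between −0.10 and 0.061 in the shortest genes and between −0.060 and 0.13 in the longest. wt mice 1 and 2 also carried high Xist (the RNA of the inactive X chromosome, over 100 CPM), as did Zmat3-/- mice 1 and 2 and TKO mouse 1, while the other 6 mice were under it. The labels give neither the sex of the mice nor a batch. In the wt group the length trend and the Xist class cannot be told apart, and the values of the 7 genes are therefore also given within the Xist classes or without wt mice 1 and 2.

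**Figure D1:**
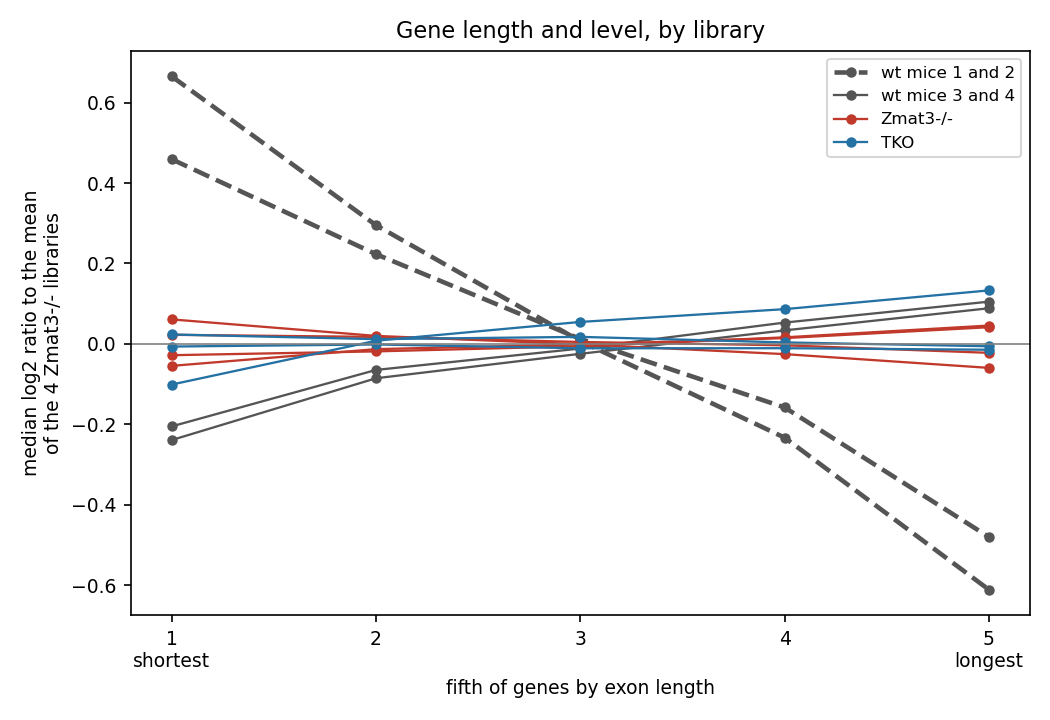
Median log2 ratio of each library to the mean of the 4 Zmat3-/- libraries (y axis) in 5 equal groups of protein-coding genes ranked by exon length (x axis), one line per mouse. wt mice 1 and 2 (dashed) run from 0.67 and 0.46 in the shortest genes down to −0.61 and −0.48 in the longest, while the other 9 lines lie between −0.24 and 0.13 at both ends.

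Zmat3 transcripts were lower in every mutant mouse than in every wt mouse and were still counted in all of them. The wt mice had 9.81, 12.1, 27.2 and 27.4 CPM in the order of their numbers, from 325, 493, 645 and 696 counts. The 4 Zmat3-/- mice had 5.72, 5.33, 6.48 and 6.91 CPM, from 164 to 243 counts, and the 3 TKO mice had 8.13, 8.12 and 7.504 CPM, from 140 to 614 counts. The wt values thus fell into a low and a high pair, and even the lower pair lay above all 7 mutants. Ranges that did not overlap were found for 8.61% of all genes tested in both mutant genotypes against wt, 13.9% in Zmat3-/- against wt and 13.8% in TKO against wt. As a share of the wt mean of 19.1 ± 9.49 CPM (SD, n = 4), the mean level was 32.0% in Zmat3-/- (6.11 ± 0.717 CPM, SD, n = 4) and 41.4% in TKO mice (7.92 ± 0.359 CPM, SD, n = 3). The spread was therefore wide in wt, where the highest mouse was 2.79 times the lowest, and narrow in the mutants, where this factor was 1.297 and 1.08.

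**Figure D2:**
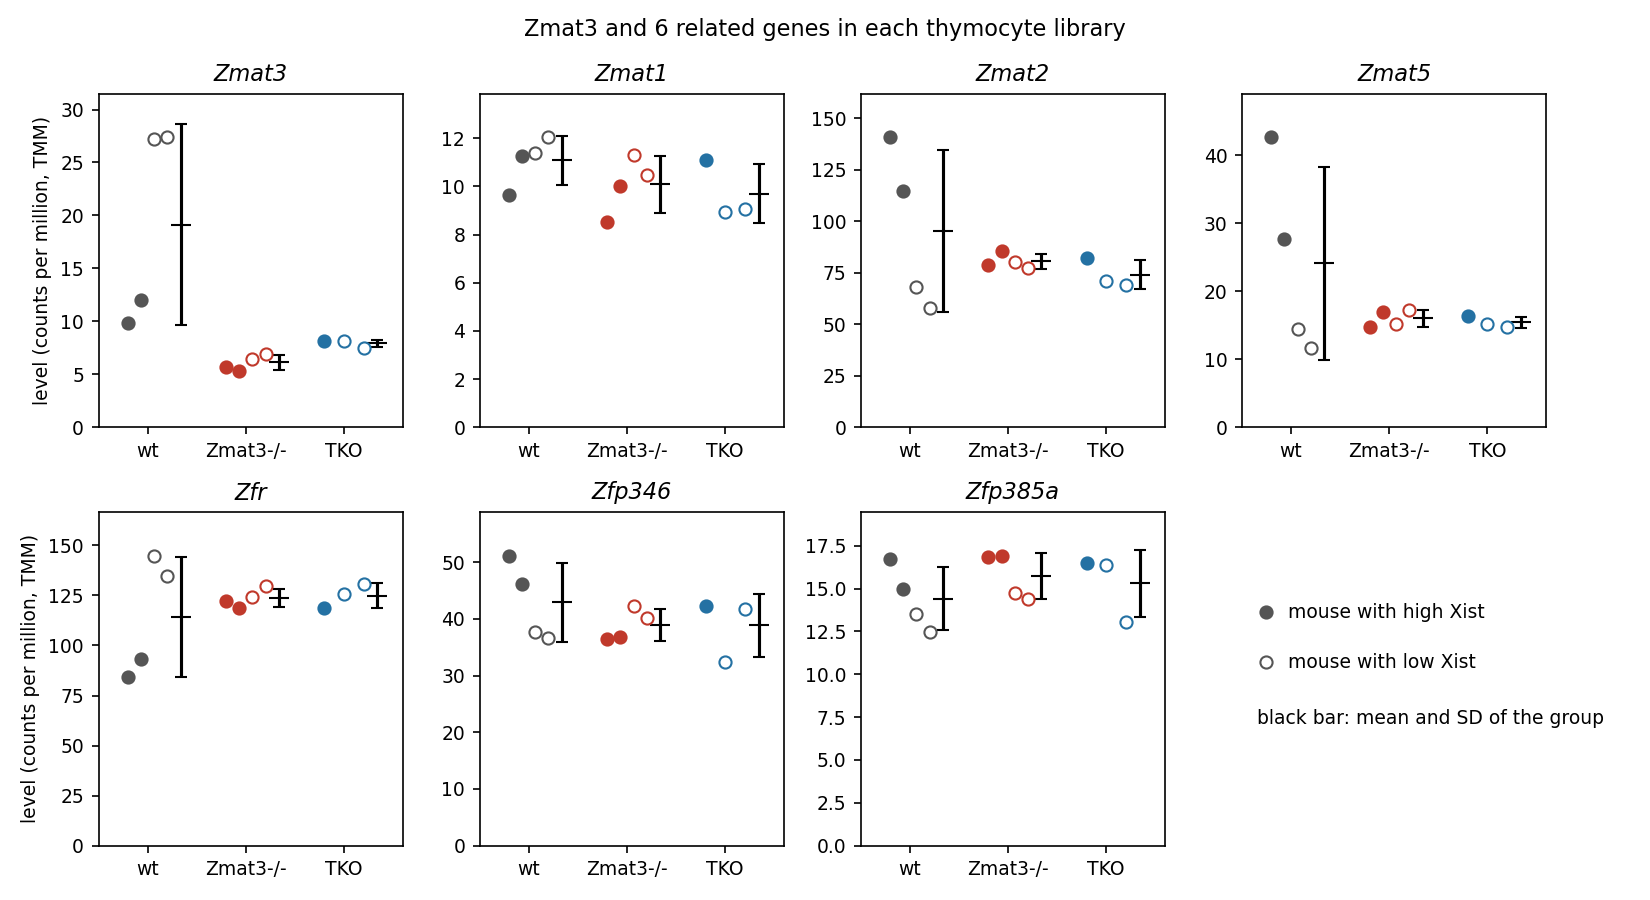
Level of each of the 7 genes in CPM (y axis, starting at 0) in each mouse, by genotype (x axis), with the mean and SD of the group as a black bar. Filled points are mice with high Xist and open points mice with low Xist. The 7 mutant mice lie between 5.33 and 8.13 CPM for Zmat3, under all 4 wt mice, and the wt points form separate pairs for Zmat3, Zmat2, Zmat5 and Zfr.

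With both mutant genotypes set against wt in one fit, Zmat3 passed the test. Its log2FC was −1.46 (standard error 0.264, 95% interval −2.04 to −0.87, adjusted p = 0.0142), in a comparison where 4.68% of 13522 genes passed. The exact two-sided permutation test of log2 CPM gave p = 0.00303, the smallest that 7 mice against 4 allow. Over the 22 alternative fits of this comparison the log2FC ran from −1.98 to −0.71. The value of −0.71 is from the mice of high Xist, with a single TKO mouse, and is given with no test. The call held in all the other fits. In the separate comparisons with wt, the interval of the log2FC also lay under 0 in both mutant genotypes. It ran from −2.44 to −0.84 in Zmat3-/- and from −2.20 to −0.37 in TKO mice, but neither difference passed after adjustment over all genes (adjusted p = 0.0786 and 0.371), and 0.763% and 0.294% of genes did. Leaving out wt mouse 1 alone brought Zmat3 past the test in Zmat3-/- mice, at a log2FC of −1.86 (adjusted p = 0.0381). It did not pass when any other single mouse was left out, with an adjusted p from edgeR of up to 0.263. Both genotypes share the 4 wt mice, so these comparisons are not independent of each other.

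The size of the fall depended on which wt mice were taken as the reference. Without wt mice 1 and 2 the log2FC of Zmat3 was −2.16 in Zmat3-/- and −1.80 in TKO mice (adjusted p = 2.66e-06 and 0.000316), and the residual level was 22.4% and 29.0% of wt. Within the mice of low Xist, Zmat3-/- mice had 24.5% and TKO mice 28.6% of the wt level (2 mice a group). Within those of high Xist the shares were 50.5% in Zmat3-/- mice (2 against 2) and 74.3% in the single TKO mouse, a log2FC of −0.44 that is given as a value with no test. With an offset that removed each library's trend on exon length, the log2FC was −1.77 in Zmat3-/- and −1.42 in TKO mice and passed in both (adjusted p = 0.00443 and 0.0412). Zmat3 has 11435 exonic bases and belongs to the group of longest genes.

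Between the mutant genotypes, the Zmat3 level differed in the same direction in all mice, but not past the test. Every TKO mouse lay above every Zmat3-/- mouse, and 5.65% of all genes tested in this comparison had ranges that did not overlap. The log2FC was 0.36 (standard error 0.145, 95% interval 0.033 to 0.68, unadjusted p = 0.0339), which did not pass over all genes (adjusted p = 0.983). In this comparison 0.221% of 13124 genes passed. The exact permutation test gave p = 0.0571, where 3 mice against 4 allow 0.0286. The difference was 0.19 between the mice of low Xist and did not pass (adjusted p = 0.88 from edgeR), where 0.107% of all genes did. Between the single TKO mouse and the 2 Zmat3-/- mice of high Xist it was 0.55, a value with no test, in a fit in which 2.54% of genes passed.

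None of the 6 related genes passed edgeR's test in any of the 4 comparisons. None had an unadjusted p below 0.05 there either, a level reached by 16.1% of all genes in Zmat3-/- against wt, 10.3% in TKO against wt, 4.49% in TKO against Zmat3-/- and 23.7% in both mutant genotypes against wt, and DESeq2 called none of them, beside 8.04%, 2.87%, 0.556% and 13.1% of all genes in the same order. The range of every relative overlapped between wt and each mutant genotype. In Zmat3-/- against wt mice the 95% interval of the log2FC had an upper end of 0.17 for Zmat1, 0.36 for Zmat2, 0.26 for Zmat5, 0.52 for Zfr, 0.15 for Zfp346 and 0.42 for Zfp385a. In TKO against wt mice the upper ends ran from 0.19 for Zmat1 to 0.60 for Zfr. These upper ends depended on wt mice 1 and 2. Without them Zmat2 was higher in Zmat3-/- than in wt mice, by a log2FC of 0.37 (adjusted p = 0.00501 from edgeR, where 33% of all genes passed), and the upper ends were 0.53 for Zmat2, 0.57 for Zmat5 and 0.54 for Zfp385a.

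**Figure D3:**
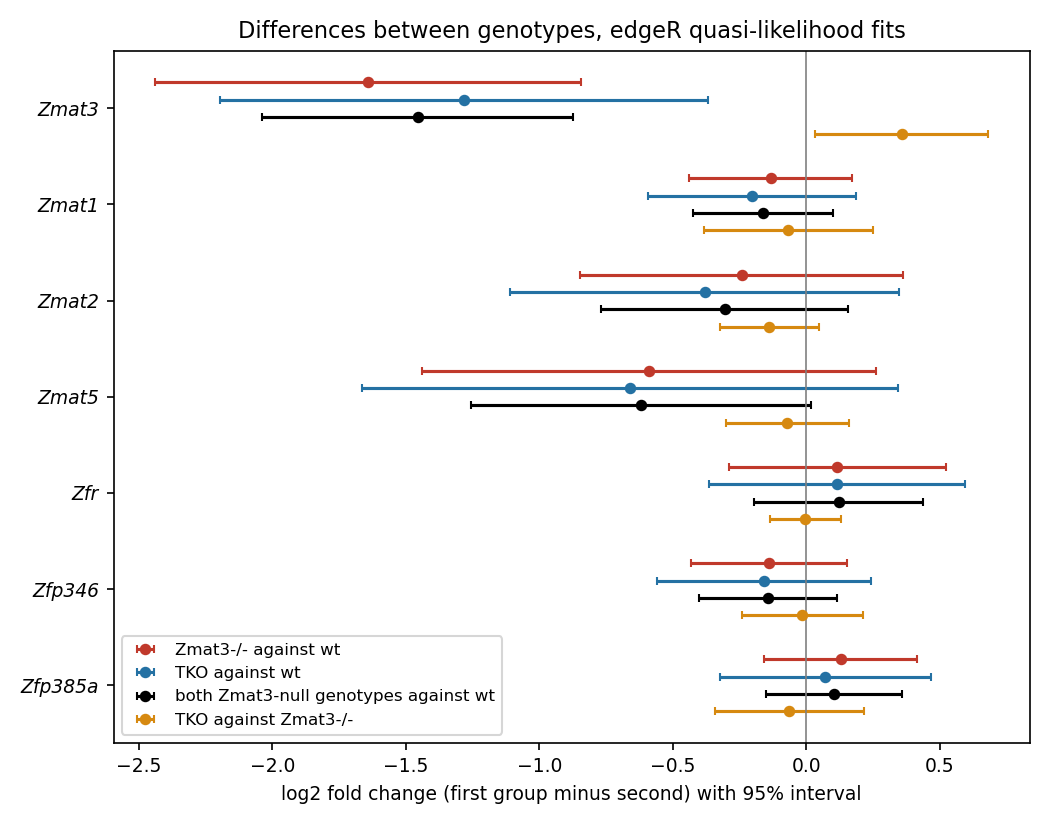
Log2 fold change (x axis) of the 7 genes in 4 comparisons, with 95% intervals from edgeR's quasi-likelihood fits. Zmat3 lies under 0 in the 3 comparisons with wt, from −1.64 to −1.28, while the intervals of the 6 related genes all include 0.

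Zmat2 (ENSMUSG00000001383.9, plus strand, chr18:36793876-36799666) encodes a protein that joins the spliceosome before its activation, and its transcript was among the most abundant of the group. The wt mice had 141, 115, 68.1 and 57.7 CPM in the order of their numbers, the Zmat3-/- mice 78.6, 85.8, 80.3 and 77.5 CPM, and the TKO mice 82.1, 71.1 and 69.0 CPM. All 7 mutants lay between the low and the high pair of wt mice. The log2FC of both mutant genotypes against wt was −0.31 (95% interval −0.77 to 0.16). Its direction turned with the reference mice. Without wt mice 1 and 2 it was 0.37 in Zmat3-/- mice (adjusted p = 0.00501, where 33% of all genes passed) and 0.23 in TKO mice (adjusted p = 0.25, where 8.15% of all genes passed). For both mutant genotypes it was 0.30 (adjusted p = 0.0327, where 25.9% passed).

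Zmat5 (ENSMUSG00000009076.10, plus strand, chr11:4704678-4737669) encodes a small zinc-finger protein of the U11/U12 particle of the minor spliceosome. The wt mice had 42.7, 27.7, 14.4 and 11.7 CPM, against 14.8, 17.0, 15.1 and 17.2 CPM in Zmat3-/- and 16.4, 15.1 and 14.8 CPM in TKO mice. The highest wt mouse was 3.66 times the lowest, the widest wt range of the 7 genes, whereas the mutants spanned 1.16 times and 1.11 times. The log2FC of both mutant genotypes was −0.62 (95% interval −1.26 to 0.018, adjusted p = 0.222), and with the offset for exon length it was −0.26. Without wt mice 1 and 2 it was 0.31 in Zmat3-/- mice (adjusted p = 0.0739). Zmat5 has 1248 exonic bases and belongs to the group of shortest genes. Of its 31-base words, 25.0% are shared with Cabp7 on the opposite strand, but Cabp7 did not exceed 0.66 CPM in any mouse.

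Zfr (ENSMUSG00000022201.16, plus strand, chr15:12117831-12185683) encodes a zinc-finger RNA-binding protein that pairs with the ILF family and takes part in splicing. Its level was 84.4, 93.1, 145 and 135 CPM in the wt mice, and ranged from 119 to 130 CPM in Zmat3-/- and from 119 to 131 CPM in TKO mice. The order of the wt pairs was that of Zmat3, with mice 1 and 2 low, and the mutants again lay between the pairs. The log2FC of both mutant genotypes was 0.12 (95% interval −0.19 to 0.44). Without wt mice 1 and 2 it was −0.17 in Zmat3-/- mice (adjusted p = 0.0431, where 33% of all genes passed) and −0.17 in TKO mice (adjusted p = 0.194, where 8.15% passed).

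Zfp346 (ENSMUSG00000021481.11, plus strand, chr13:55105311-55134825), whose product binds double-stranded RNA, had 51.2, 46.1, 37.8 and 36.7 CPM in the wt mice. It ranged from 36.5 to 42.2 CPM in Zmat3-/- and from 32.4 to 42.4 CPM in TKO mice. Its log2FC was −0.14 (95% interval −0.40 to 0.12) for both mutant genotypes. Zfp385a (ENSMUSG00000000552.10, minus strand, chr15:103313895-103340093), the other TRP53 target of the group, had 16.7, 14.99, 13.5 and 12.4 CPM in wt, 14.4 to 16.9 CPM in Zmat3-/- and 13.1 to 16.5 CPM in TKO mice, and its log2FC was 0.10 (95% interval −0.15 to 0.36). With the offset for exon length the log2FC of Zfp385a was 0.25 (95% interval 0.041 to 0.45, adjusted p = 0.124). Zmat1 (ENSMUSG00000052676.16, minus strand, chrX:134971372-135009209) had 9.63, 11.2, 11.4 and 12.0 CPM in wt, 8.52 to 11.3 CPM in Zmat3-/- and 8.94 to 11.1 CPM in TKO mice, and its log2FC was −0.16 (95% interval −0.43 to 0.10). These were the genes with the narrowest wt ranges of the group, with the highest mouse 1.40, 1.34 and 1.25 times the lowest.

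Within the Xist classes the relatives moved in different directions against wt. Among mice of high Xist, Zmat2, Zmat5 and Zfp346 were lower in Zmat3-/- than in wt mice, by a log2FC of −0.63, −1.14 and −0.40, and Zfr was higher, by 0.45 (adjusted p = 0.00803, 0.00646, 0.0191 and 0.0114). In that comparison 42.1% of 14270 genes passed, so 4 of 6 relatives stand against a high background. Among mice of low Xist, Zmat2 was higher by 0.33 (adjusted p = 0.0147), the other 5 did not pass, and 28.2% of 13774 genes did. The high class of TKO holds a single mouse, so that the spread came from wt mice 1 and 2 alone. Its log2FC for Zmat5 was −1.11, given as a value with no test, and 20.2% of genes passed in that fit. No relative passed among TKO and wt mice of low Xist, where 3.02% of genes did. With both mutant genotypes together, Zmat2, Zmat5, Zfr and Zfp346 passed among the mice of high Xist, as did 44.6% of all genes, and none of the 6 among those of low Xist, where 15.3% of genes did.

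**Figure D4:**
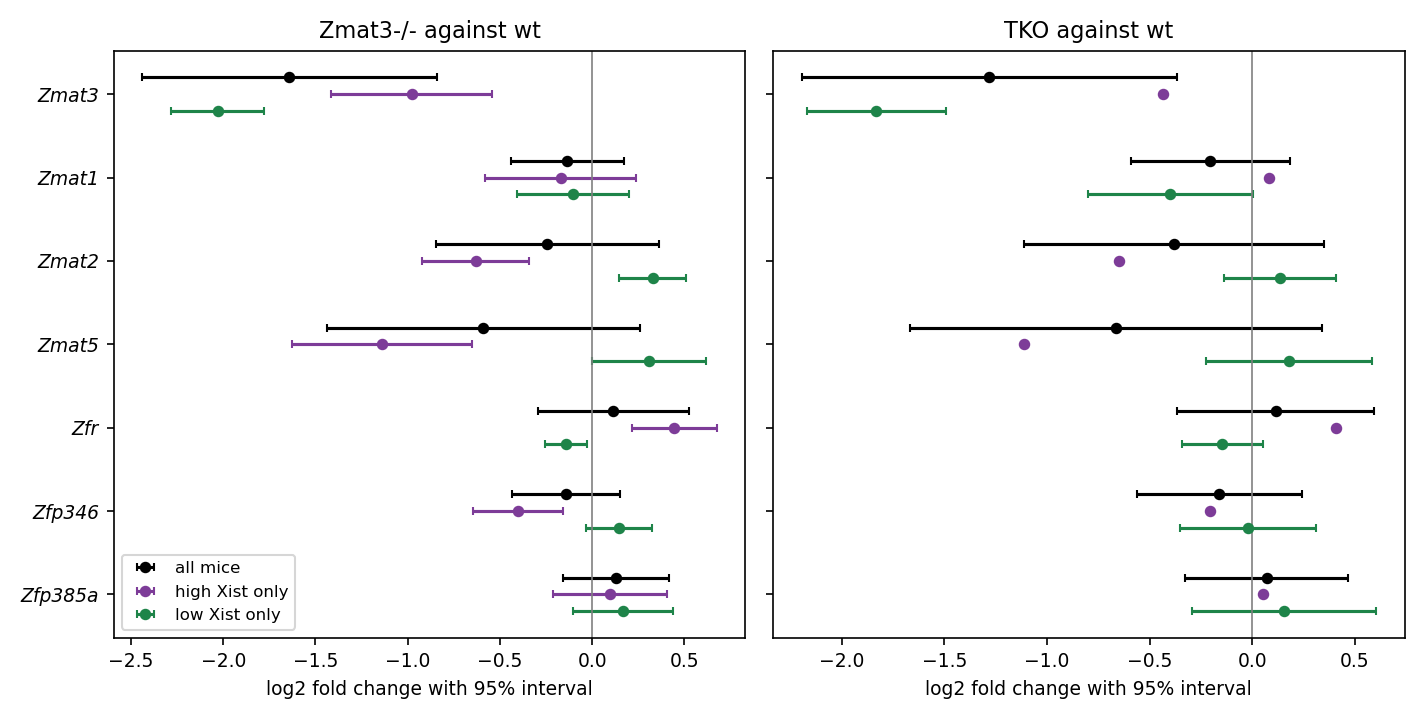
Log2 fold change with 95% interval (x axis) of the 7 genes in Zmat3-/- against wt (left) and TKO against wt (right), from all mice, from mice with high Xist and from mice with low Xist. The single TKO mouse of high Xist has points with no interval. For Zmat3 all 6 points lie under 0, while Zmat2 and Zmat5 lie under 0 in the mice with high Xist and above 0 in those with low Xist.

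Per kilobase of exon, Zmat3 was the lowest of the group in both mutant genotypes. In Zmat3-/- mice the order of the levels was Zmat2 with 31.1 ± 1.42 CPM per kilobase (SD, n = 4), Zfr with 20.9 ± 0.785, Zmat5 with 12.8 ± 0.999, Zfp346 with 9.32 ± 0.660, Zfp385a with 6.26 ± 0.532, Zmat1 with 1.87 ± 0.218 and Zmat3 with 0.534 ± 0.0627. No neighbours in this order had overlapping ranges, and the same order without overlap was found in TKO mice, where Zmat3 had 0.692 ± 0.0314 CPM per kilobase (SD, n = 3). In wt mice Zmat3, at 1.67 ± 0.830 CPM per kilobase (SD, n = 4), and Zmat1, at 2.05 ± 0.191, could not be separated, since Zmat3 ranged from 0.858 to 2.40 and Zmat1 from 1.79 to 2.23. The wt ranges of Zmat2 and Zfr, of Zfr and Zmat5 and of Zmat5 and Zfp346 overlapped too. These values divide by the union of all annotated exons, so a gene whose longest form is unused is understated.

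For most members a small part of the sequence was shared with other genes. Counted in 31-base words, 1.94% of the sequence of Zmat3 and 3.03% of that of Zmat1 occurs in transcripts of other genes, in stretches scattered over many of them. The 5 genes that shared most with Zmat3 held 36 to 47 of its 11426 words each. Gm38120 had at most 0.506 CPM, but Imp4, Dennd6a, Clcn7 and Naa40 reached 69.4, 77.2, 48.6 and 92.4 CPM, above Zmat3 in any mouse, and the part of shared reads in its residual level was not tested. For Zmat2, Zfr and Zfp346 the share was 0.273%, 0.183% and 0.137%, and for Zfp385a it was 0.

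Further relatives and partners were taken from lists of 65 genes, of which 64 were in the table and 60 were tested. In Zmat3-/- against wt, TKO against wt and TKO against Zmat3-/- mice none of the 60 passed edgeR's test, where 0.763%, 0.294% and 0.221% of all genes did. At an unadjusted p below 0.05 there were 8, 3 and 2 of the 60, beside 16.1%, 10.3% and 4.49% of all genes. In these comparisons DESeq2 called 2, 1 and 1 of them, beside 8.04%, 2.87% and 0.556% of all genes. The 60 include Cdkn1a and Bbc3, whose deletion is part of the TKO label. Of the 3 and 2 genes with such an unadjusted p in the TKO comparisons, 2 and 2 were in the list of 9 TRP53 axis genes that holds both. With both mutant genotypes together 1 of 60 passed, beside 4.68% of all genes, and 18 had an unadjusted p below 0.05, beside 23.7%, and the median log2FC of the list was −0.13 against −0.025 over all tested genes. DESeq2 called 7 of the 60 there, beside 13.1% of all genes, and without wt mice 1 and 2 edgeR called 13, beside 25.9%.

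The gene that passed was Matr3, which encodes matrin 3, the nuclear matrix protein that gave this type of zinc finger its name. It had 277 to 310 CPM in the 4 wt mice, 365 to 393 CPM in the Zmat3-/- mice and 365 to 412 CPM in the TKO mice, so that no mutant mouse overlapped the wt range. Ranges that did not overlap were found for 8.61% of all genes tested in this comparison. The log2FC of Matr3 was 0.35 (standard error 0.0809, adjusted p = 0.0341). Unlike Zmat3 and Zmat2, Matr3 did not split the wt mice into pairs, and without wt mice 1 and 2 the log2FC was 0.31 (adjusted p = 0.0106, where 25.9% of all genes passed). With the offset for exon length it was 0.12 and did not pass (adjusted p = 0.547). Nor did it pass without the filter on low counts at 0.37 (adjusted p = 0.203), with the replicate block at 0.36 (adjusted p = 0.0703) or among the mice of low Xist at 0.29 (adjusted p = 0.0536). The call was also lost without any single one of wt mice 1 and 2, the 4 Zmat3-/- mice and TKO mice 1 and 2, where the adjusted p of edgeR's test reached up to 0.0916. Over the 11 fits without 1 mouse the log2FC stayed between 0.32 and 0.37.

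The other 7 tested genes of the matrin-type list did not pass. The one with the largest log2FC was Zfr2, a relative of Zfr, with −0.72 (adjusted p = 0.133). It passed at −0.81 with the offset for exon length (adjusted p = 0.0486), at −1.23 among the mice of low Xist (adjusted p = 0.0269) and at −1.07 without wt mice 1 and 2 (adjusted p = 0.0112), but was −0.085 among those of high Xist. The 3 passing fits were out of 22 alternative fits, and 8.65%, 15.3% and 25.9% of all genes passed in them. Zmat4, Zfp385b and Zfp385c stayed under 0.15 CPM on average in every genotype, Rbm20 stayed under the filter too, and none was tested. Among 15 genes of double-stranded RNA binding, 12 had a log2FC above 0, as did 46.9% of all tested genes, and 8 without wt mice 1 and 2. The largest was that of Stau2, an RNA transport protein, which averaged 1.90 CPM in wt, 3.69 CPM in Zmat3-/- and 3.16 CPM in TKO mice, with a log2FC of 0.83 (adjusted p = 0.085). It passed with DESeq2 (adjusted p = 0.0187), with DESeq2 given the Xist level and 1 surrogate variable (adjusted p = 0.0146), among the mice of low Xist at 1.25 (adjusted p = 0.0312) and without wt mice 1 and 2 at 1.34 (adjusted p = 0.00696). These were 4 of its 22 alternative fits, and 13.1%, 14.2%, 15.3% and 25.9% of all genes passed in them, in the same order.

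All 7 genes of the minor spliceosome, the machinery of ZMAT5, had a log2FC under 0, as did 53.1% of all tested genes, with a median of −0.30, and none passed. With the offset for exon length 6 of the 7 were under 0 (median −0.30), among the mice of high Xist 5 (median −0.43), and without wt mice 1 and 2 there were 4 (median −0.064), beside 52.3%, 50.9% and 49.2% of all tested genes. Rnpc3 had the largest, −0.56 (adjusted p = 0.272). It was 0.35 among the mice of high Xist (a single TKO mouse, so no test) and −1.11 among those of low Xist (adjusted p = 0.00076, where 15.3% of all genes passed). Without wt mice 1 and 2 it was −1.14 (adjusted p = 2.84e-06, where 25.9% passed). Of 21 genes of the tri-snRNP and the precatalytic complex, the surroundings of ZMAT2, 15 were under 0 and none passed. With the offset for exon length 14 of them were under 0, among the mice of high Xist 16, and without wt mice 1 and 2 there were 4, with the median of the list going from −0.14 over all mice to 0.18. The largest was that of Ubl5, −0.41 (adjusted p = 0.0727). It passed with DESeq2 (adjusted p = 0.0127), with DESeq2 given the Xist level and 1 surrogate variable (adjusted p = 0.0339), with the offset for exon length at −0.34 (adjusted p = 0.0304), and without wt mouse 3 or wt mouse 4 alone. With DESeq2, with DESeq2 given both and with the offset, 13.1%, 14.2% and 8.65% of all genes passed. Among the mice of high Xist the log2FC of Ubl5 was −0.66, a value with no test, since that class holds a single TKO mouse. Among 9 genes of the TRP53 axis and described ZMAT3 targets none passed. For Cdkn1a the genotypes are given apart, since its deletion is part of the TKO label. Its log2FC against wt was 0.0051 in Zmat3-/- mice (adjusted p = 0.996) and −1.09 in TKO mice (adjusted p = 0.443). Both genotypes together gave −0.54 (adjusted p = 0.299 from edgeR), a value that mixes mice with and without this deletion. Among the mice of high Xist the combined value was −0.78, given with no test, since that class holds a single TKO mouse.

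The genes around Zmat3 on chromosome 3 were read in the same way. Of 29 genes within 1 Mb in the table, 8 were tested, and none passed edgeR's test in any of the 4 comparisons, where 0.221% to 4.68% of all genes did. All 8 lie upstream of Zmat3 in the sense of its transcription. The nearest, Pik3ca, a catalytic subunit of PI3-kinase 31.7 kb away, averaged 124, 135 and 146 CPM in wt, Zmat3-/- and TKO mice, with a log2FC of 0.18 (95% interval −0.10 to 0.46) for both mutant genotypes. The log2FC of Gm37123, Zfp639, Mfn1, Gnb4, Actl6a, Mrpl47 and Ndufb5 ranged from −0.64 to 0.18. Only Ndufb5, a subunit of respiratory complex I, had an edgeR p below 0.05 before adjustment, with a log2FC of −0.43 for both mutant genotypes (95% interval −0.85 to −0.0066, adjusted p = 0.205), in a comparison where 23.7% of all genes had such a p. It was −0.85 among the mice of high Xist (a single TKO mouse, so no test), 0.12 among those of low Xist and 0.11 without wt mice 1 and 2. The other 21 genes had at most 23 counts in any mouse.

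**Figure D5:**
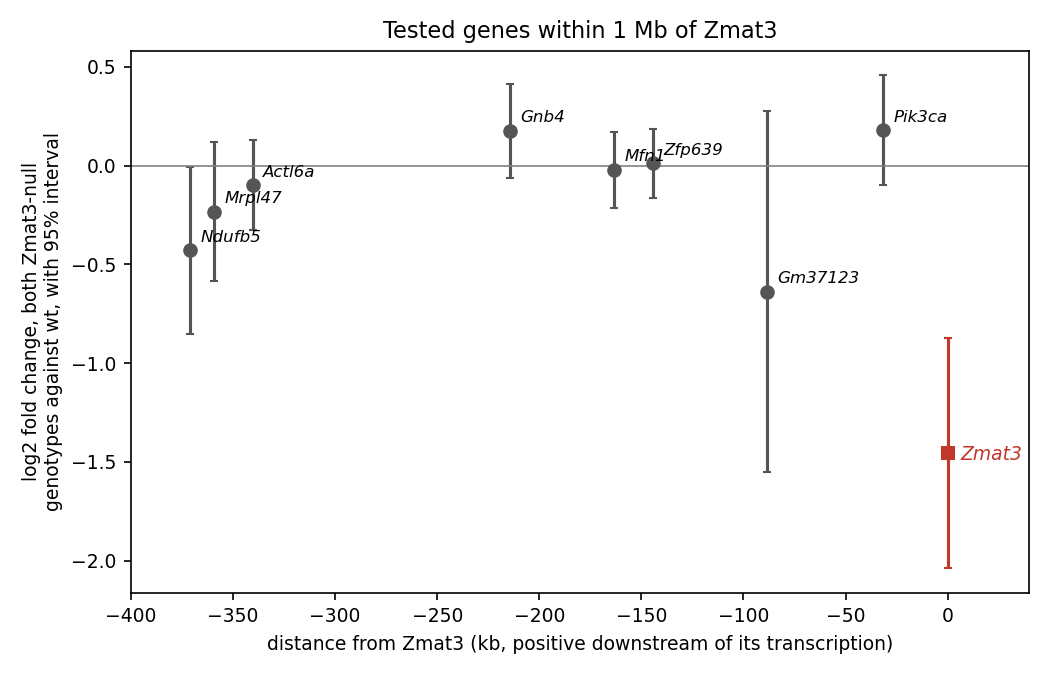
Log2 fold change of both mutant genotypes against wt with 95% interval (y axis) for Zmat3 (square) and the 8 tested genes within 1 Mb (circles), by distance in kb (x axis). Negative distances are upstream of the transcription of Zmat3. Zmat3 lies at −1.46, and the others lie between −0.64 and 0.18 with no gene past the test.

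The genes whose profile over the 11 mice was most like that of Zmat3 included none annotated as protein-coding. By the root mean squared difference of centred log2 CPM, the nearest of 13521 genes was 2900076A07Rik, a long non-coding RNA on chromosome 7, at 0.16. It had 8.24, 9.88, 20.7 and 21.02 CPM in the wt mice, 4.97 to 6.28 CPM in Zmat3-/- and 5.40 to 6.53 CPM in TKO mice. Its wt mice fell into the same low and high pairs as for Zmat3, both above all mutants. The next were 2900052L18Rik, 3110056K07Rik, Gm38384 and AI480526, at 0.22 to 0.27. The 6 related genes differed from Zmat3 by 0.69 for Zmat1 up to 0.98 for Zmat5.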

How the data were processed

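RNA from 11 thymocyte samples was made into TruSeq libraries and sequenced in paired ends. Strand handling is not given in the sources used here, so reads of a gene and its antisense partner cannot be told apart. The authors quantified reads with Salmon in an nf-core pipeline against GRCm38.p6, summed transcripts to genes and deposited estimated counts as whole numbers. They tested with DESeq2 1.40.0, with sex and surrogate variables as covariates. The labels give no sex, so Xist level stands in for it as an alternative.

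Counts, the deposited unit, were tested in R 4.3.3 with edgeR 4.0.16, the quasi-likelihood test on pairwise fits with TMM factors, and both mutant genotypes against wt in 1 fit of 11 mice. Genes were kept at 20 or more counts, at the depth of the least deep library, in a number of mice equal to that of the smaller group. Xist, chromosome Y, rRNA and immunoglobulin pseudogenes were left out (1628 genes). Adjusted p is Benjamini-Hochberg over all genes tested, past the test means under 0.05, and log2 CPM used a prior count of 2. DESeq2 1.42.0, limma 3.58.1 and sva 3.50.0 gave alternatives. The edgeR fits of the comparisons with wt, with and without the length offset, were first tested on simulated data, and the other fits were not. Gene names came from an older GENCODE release on the same build, which matched 54166 of 54418 identifiers. Depth was 17669715 to 80207003 counts per library.

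The 7 genes and the partner lists were chosen with earlier results of these data known. The genes named are the 7 members, partners past the test and the one with the largest log2FC in each list, tested genes within 1 Mb of Zmat3, the 5 profiles nearest to it and genes sharing 31-base words with a member. The fits within Xist classes, without wt mice 1 and 2, with an offset for exon length and of the interaction were added after the data had been seen. p-values measure the spread between mice of single libraries.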

Additional observations from a re-analysis of the deposited data

Results flagged for a closer look

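Several differences between Zmat3-/- and wt mice changed in size or sign between the Xist classes, by an interaction term in an edgeR fit of the mice of both genotypes. There, the log2FC in mice of high Xist minus that in mice of low Xist was 1.04 for Zmat3 (adjusted p = 0.00278), -0.966 for Zmat2 (0.00129), -1.46 for Zmat5 (0.00285), 0.579 for Zfr (0.00227) and -0.555 for Zfp346 (0.00553). These 5 stand beside 44.2% of all genes tested for which the same term passed. In TKO against wt the high class holds a single TKO mouse, so the same difference is given as a value with no test. It was 1.4 for Zmat3, -0.779 for Zmat2, -1.29 for Zmat5 and 0.561 for Zfr. Both comparisons use the same 4 wt mice, of which mice 1 and 2 make up the high class and carry the length trend, so the Xist class and those libraries cannot be told apart.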

How the results depend on the processing

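Zmat3 was lower than wt under every alternative run, from −2.16 to −0.98 (log2FC) against wt for Zmat3-/-, and from −1.83 to −0.44 for TKO mice. In Zmat3-/- against wt it passed with DESeq2 (−1.64), all genotypes in 1 fit (−1.64), Xist level (−1.53), 1 surrogate variable (−1.56), DESeq2 with both (−1.58), the length offset (−1.77), high Xist (−0.98), low Xist (−2.03) and without wt mice 1 and 2 (−2.16). In TKO against wt it passed with the length offset (−1.42), low Xist (−1.83) and without wt mice 1 and 2 (−1.80). Leaving out 1 mouse gave −1.86 (without wt mouse 1, adjusted p = 0.0381) to −1.42 against wt for Zmat3-/-, where no other such fit passed (adjusted p from edgeR up to 0.263). TKO mice lay between −1.501 and −1.05 (adjusted p at least 0.195). Its level reached 50.5% and 74.3% of wt among mice of high Xist.

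Of the 6 relatives, 4, 1 and 2 passed in Zmat3-/- mice with high Xist, low Xist and without wt mice 1 and 2, and 1 passed in both genotypes without wt mice 1 and 2. In TKO mice and in both genotypes the fits with high Xist hold a single TKO mouse, so they give no test of the relatives. Calls among all genes in Zmat3-/- (103) were 1085 with DESeq2, 55 without filter, 231 in 1 fit, 165 with Xist level, 2313 with 1 surrogate variable, 2943 with DESeq2 and both, 307 with the length offset, 6004 with high Xist, 3881 with low Xist and 4652 without wt mice 1 and 2. In TKO (39) they were 381 with DESeq2, 61 without filter, 212 in 1 fit, 20 with 1 surrogate variable, 232 with DESeq2 and both, 77 with the length offset, 3089 and 400 with high and low Xist and 1098 without those mice. Between the mutants (29) they were 73 with DESeq2, 90 without filter, 16 in 1 fit, 84 with DESeq2 and both, 377 with high and 14 with low Xist. In both genotypes (633) they were 1775, 389 and 1921 with DESeq2, without filter and with DESeq2 and both, 1170 with the length offset, 6807 and 2067 with high and low Xist and 3569 without wt mice 1 and 2. Leaving out 1 mouse gave 17 (without Zmat3-/- mouse 1) to 105 calls for Zmat3-/-, 16 (without TKO mouse 1) to 40 for TKO and 283 (without Zmat3-/- mouse 3) to 892 for both genotypes, and the count fell by over 1.5 times without any single mouse but wt mouse 1, without any TKO mouse, and without wt mouse 2, any Zmat3-/- mouse or TKO mouse 1 or 2, respectively. Of 60 partners, calls in Zmat3-/- were 2, 9, 12, 1, 31, 20 and 20 with DESeq2, 1 surrogate variable, DESeq2 and both, the length offset, high Xist, low Xist and without wt mice 1 and 2, beside 8.04%, 17.1%, 21.8%, 2.28%, 42.1%, 28.2% and 33% of all genes. In TKO they were 1, 11, 1 and 2 with DESeq2, high Xist (no test, as above), low Xist and without those mice, beside 2.87%, 20.2%, 3.02% and 8.15%. In both genotypes (1) they were 7, 7, 5, 9 and 13 with DESeq2, DESeq2 and both, the length offset, low Xist and without those mice, beside 13.1%, 14.2%, 8.65%, 15.3% and 25.9%. They were 0 with the replicate block, beside 3.27%, and 0 of 64 without filter, beside 1.27%. Of 8 neighbours, 3, 1 and 1 were called in Zmat3-/- with high Xist, low Xist and without those mice. In TKO 1 was called without them, and in both genotypes 1 and 1 with low Xist and without them, where the same shares of all genes apply.

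Directions turned, with low Xist and without wt mice 1 and 2, for Zmat2 (0.33 and 0.37), Zmat5 (0.31 and 0.31), Zfr (−0.14 and −0.17) and Zfp346 (0.15 and 0.072) in Zmat3-/-, for Zmat2 (0.14 and 0.23), Zmat5 (0.18 and 0.24) and Zfr (−0.14 and −0.17) in TKO, and for Zmat2 (0.23 and 0.30), Zmat5 (0.25 and 0.27), Zfr (−0.14 and −0.17), Zfp346 (0.064 and 0.064), Actl6a (0.041 and 0.068), Ndufb5 (0.12 and 0.11) and Mrpl47 (0.077 and 0.15) in both genotypes. They also turned without those mice for Zfp346 in TKO (0.056), Cdkn1a (from −0.54 to 0.20 in both genotypes, though it is deleted in TKO only), Pik3ca (−0.046) and Mfn1 (0.0069), with high Xist for Zmat1 in TKO (0.081), Rnpc3 (0.35), Zfp639 (−0.024) and Gm37123 (0.75), and with the length offset for Zfp639 (−0.038) and Gnb4 (−0.14). Between the mutants they turned for Zmat1 (0.26), Zmat5 (0.047) and Zfp346 (0.21) with high Xist, Zfp346 without filter (0.0029), Zfp385a with DESeq2 and both (0.0076), and Zfr with DESeq2 (0.0016), RLE (0.0013), no filter (0.013), 1 fit (0.015) and the replicate block (0.019). Leaving out 1 mouse (wt mouse 1 where Zmat2 or Zfr turned against wt) gave −0.43 to 0.0052 for Zmat2 and −0.0050 to 0.24 for Zfr in Zmat3-/-, −0.0077 to 0.24 for Zfr in TKO, −0.012 to 0.041 for Zfp639 and −0.053 to 0.014 for Mfn1, and between the mutants −0.19 to 0.011 for Zmat1, −0.023 to 0.027 for Zfr, −0.095 to 0.10 for Zfp346 and −0.14 to 0.066 for Zfp385a. Matr3 (0.35) lost its call with the length offset (0.12), low Xist (0.29), no filter (0.37) and the block (0.36). The cause of these changes was not tested.

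Same-numbered mice were not taken as pairs in the main fits, and whether they were paired was not tested. Their correlations ran from 0.0857 to 0.324, 0.0706 to 0.386 and -0.00293 to 0.165 in Zmat3-/- against wt, TKO against wt and TKO against Zmat3-/-. The means were 0.223, 0.247 and 0.109, against -0.0744, -0.0813 and -0.0359 for different numbers. In these comparisons 2 of 4, 2 of 3 and 2 of 3 correlated best with their own number. wt and Zmat3-/- mice of the same number also share the Xist class. With the replicate block Zmat3 gave −1.502 in Zmat3-/- (adjusted p = 0.178) and −0.91 in TKO against wt (0.305), 0.42 between the mutants (0.925) and −1.28 in both genotypes (0.0342), no relative passed, and 12, 16, 21 and 442 genes passed in all. Depth limits genes of few counts, and the number of mice limits small differences.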
